A study of Mus musculus with 6 samples.

Results

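Mitosis genes were followed in 6 paired-end RNA-seq libraries of macrophages sorted from digested mouse hearts, 3 labelled Tet2 KO and 3 labelled Tet2 WT. The 42 members are a fixed list of genes used in G2 phase and mitosis, matched by symbol in GENCODE M21 among 35865 annotated genes. All 42 passed the filter on low counts that left 16386 genes for testing. The Tet2 KO macrophages carried the Tet2 knockout and the Tet2 WT macrophages were wild type for Tet2; both were derived from donor haematopoietic progenitor cells, and the strain was C57BL/6J. In the study's model the recipient mice received no conditioning, so they kept blood cells of their own. The sort gate, the age and sex of the mice, the deleted part of Tet2 and whether each library came from a separate animal are not given in the sources used here. The p-values are therefore set by the variation among these 6 libraries, and part or all of it may be technical. The list was not chosen by its values, but it was set out with earlier results of these data known.

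Mitosis is run by Cdk1 bound to cyclin A or B, which starts chromosome condensation and spindle assembly, and by the anaphase-promoting complex, which ends it by destroying the cyclins and the protein that guards sister chromatid cohesion. Most of the genes involved are transcribed late in the cell cycle, under the DREAM complex, B-Myb and FOXM1, through CHR elements and CCAAT boxes near their start sites. In the adult heart, resident macrophages can renew themselves by division, and cells recruited from blood monocytes also join the pool. In RNA from a sorted population, a larger share of dividing cells and more mitotic RNA in each dividing cell cannot be told apart.

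Mitosis genes were higher in the Tet2 KO libraries as a group. Of the 42 members, 32 were called higher at an adjusted p under 0.05 in edgeR's quasi-likelihood test, 0 were called lower and 10 were not called. Among all tested genes, 6.11% were called higher and 10.1% lower. The median log2 fold change of the members (Tet2 KO over Tet2 WT) was 0.81, with a range of 0.23 for Mad2l1 to 1.55 for Kif2c, against a median of 0.00 over all tested genes. In CPM, counts per 1e6 counts after TMM scaling, all 3 Tet2 KO libraries stood above all 3 Tet2 WT libraries for 38 members, a pattern shown by 16.4% of all tested genes. The exceptions were Ttk, Mad2l1, Kif15 and Kif20b. These directions are relative to all genes after TMM scaling. Scaling to Adgre1 and Csf1r, which were also higher in Tet2 KO, lowered the median of all tested genes to -0.78, and with it 19 of the 42 members lay below 0 and 0 were called in either direction. The 32 calls had log2 fold changes of at least 0.66 and edgeR adjusted p-values of 0.00154 to 0.0397. The 10 members not called were Mki67, Cdk1, Foxm1, Incenp, Bub1, Ttk, Mad2l1, Knl1, Kif15 and Kif20b, with log2 fold changes of 0.23 to 0.72 and edgeR adjusted p-values of 0.0598 to 0.521.

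**Figure D1:**
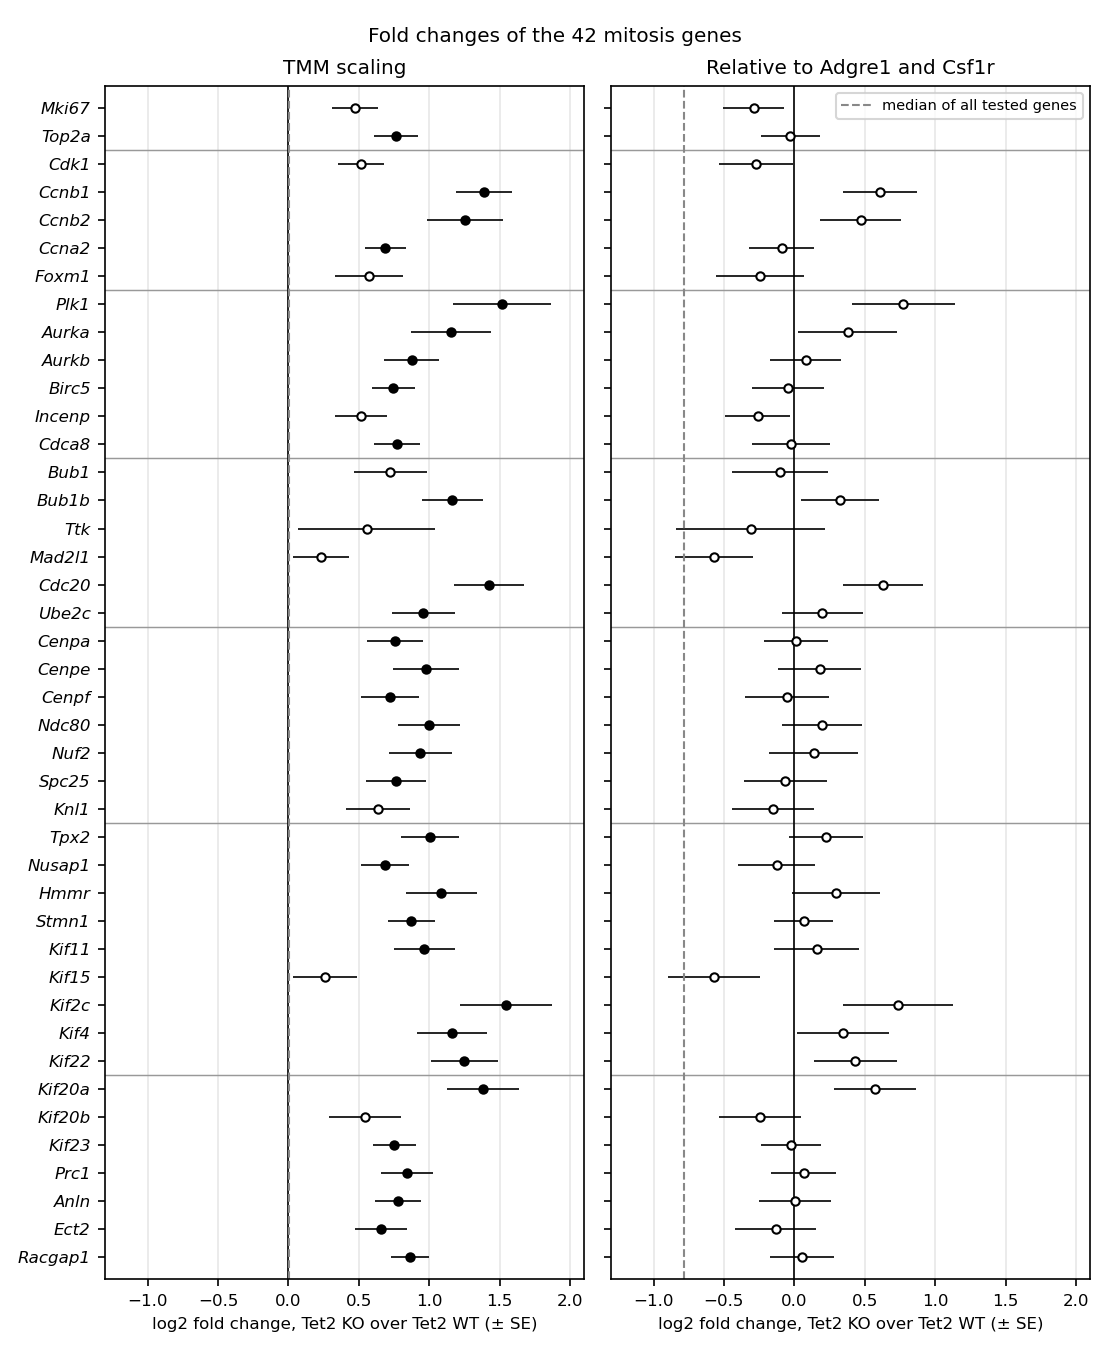
Log2 fold change of the 42 mitosis genes, Tet2 KO over Tet2 WT, with standard errors, grouped by role, after TMM scaling in the left panel and relative to Adgre1 and Csf1r in the right panel. Filled markers are genes called at an edgeR adjusted p under 0.05 and dashed lines are the medians of all tested genes, 0.00 and -0.78. With TMM scaling all 42 lie above 0 and 32 are filled; relative to the macrophage genes they spread around a median of 0.03, with 19 below 0 and 0 filled.

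The libraries held 37349505 to 55771087 estimated counts, and a member received between 102 and 7934 of them in a library. The macrophage receptors that serve as reference genes rose in Tet2 KO. Adgre1, which encodes F4/80, had 1389, 1157 and 1446 CPM in Tet2 KO and 666, 912 and 763 CPM in Tet2 WT, a log2 fold change of 0.77 ± 0.16 (SE; edgeR adjusted p = 0.0112). Csf1r, the receptor for the macrophage growth factor CSF1, had 3289, 2961 and 3528 CPM in Tet2 KO and 1482, 2129.6 and 2104 CPM in Tet2 WT, a log2 fold change of 0.77 ± 0.18 (SE; edgeR adjusted p = 0.0167). The libraries of the genotypes did not overlap for either gene. Without Tet2 KO replicate 3 neither was called (edgeR adjusted p = 0.0594 and 0.0834). Tet2 itself had 81.2, 82.6 and 78.2 CPM in Tet2 KO and 57.5, 76.1 and 60.8 CPM in Tet2 WT and was not called (0.32 ± 0.14, edgeR adjusted p = 0.159). It was thus not lower in the libraries labelled Tet2 KO, and since the deleted part of the gene is not given, its level does not check the labels. Of 16 macrophage markers 14 were called higher, with summed CPM of 39998 to 49392 in Tet2 KO and 23354 to 31794 in Tet2 WT. All 10 fibroblast markers were called lower, with sums of 624 to 1276 CPM in Tet2 KO and 5957 to 10549 CPM in Tet2 WT. Erythroid sums were 348 to 744 CPM in Tet2 KO and 33.3 to 249 CPM in Tet2 WT, mostly globin RNA, with Alas2 called higher and Gata1 and Slc4a1 at 0 in every library. B cell sums, mostly Ighm, were 467 to 892 CPM in Tet2 KO and 379 to 474 CPM in Tet2 WT; Cd79b and Ighm were called higher and Ebf1 lower. The mast cell and progenitor sum, carried by Cd34, was 55.4 to 101 CPM in Tet2 KO and 488 to 802 CPM in Tet2 WT. T and NK cell and neutrophil sums stayed at 5.12 CPM or less in every library, with Ncr1 and Elane at 0. Among the endothelial, pericyte, cardiomyocyte and dendritic cell markers, the called genes were Tek and Abcc9, both lower. The part of these shifts in the mitosis results was not tested.

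Both chromosome markers are abundant in dividing cells. Top2a, the topoisomerase that untangles sister chromatids, had 69.8, 62.8 and 88.7 CPM in Tet2 KO and 40.03, 48.2 and 41.9 CPM in Tet2 WT. Every Tet2 KO library stood above every Tet2 WT library, and the log2 fold change was 0.77 ± 0.16 (SE; edgeR adjusted p = 0.00948). Mki67, whose product Ki-67 coats mitotic chromosomes and is the usual marker of cycling cells, had 51.05, 50.9 and 50.9 CPM in Tet2 KO and 30.5, 45.7 and 33.9 CPM in Tet2 WT. The Tet2 KO libraries were almost equal to each other and Tet2 WT replicate 2 came close below them, and Mki67 was not called (0.47 ± 0.16, edgeR adjusted p = 0.0814). In transcripts per 1e6 transcripts (TPM), a level per length, Mki67 overlapped, with 7.59, 6.53 and 7.04 TPM in the Tet2 KO libraries, against 4.27, 7.49 and 5.405 TPM in the Tet2 WT libraries. This widely used proliferation marker was thus among the 10 members without a call in these libraries; it was called without Tet2 WT replicate 2 (edgeR adjusted p = 0.016).

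Among the cyclins, Cdk1 and Foxm1, the cyclins were called higher and the other 2 genes did not pass the test. Ccnb1 (ENSMUSG00000041431.16; GRCm38 chromosome 13, 100778650 to 100786570, minus strand) encodes cyclin B1, the partner with which Cdk1 drives entry into mitosis. It had 35.003, 27.1 and 29.9 CPM in Tet2 KO and 10.97, 14.8 and 9.395 CPM in Tet2 WT. No Tet2 WT library came near the Tet2 KO range, and the log2 fold change of 1.39 ± 0.20 (SE; edgeR adjusted p = 0.00154) had the smallest p of the 42 members. Ccnb2, encoding the second B-type cyclin, had 36.1, 20.8 and 26.5 CPM in Tet2 KO and 10.8, 15.6 and 8.401 CPM in Tet2 WT, a log2 fold change of 1.26 ± 0.27 (SE; edgeR adjusted p = 0.0125). Tet2 KO replicate 1 was the highest library, and the genotypes did not overlap. Ccna2, encoding the cyclin that acts from S phase into early mitosis, had 41.3, 38.7 and 39.6 CPM in Tet2 KO and 23.2, 28.9 and 22.1 CPM in Tet2 WT. Its Tet2 KO libraries lay close together and above Tet2 WT, with a log2 fold change of 0.69 ± 0.15 (SE; edgeR adjusted p = 0.0116). Cdk1, the kinase these cyclins switch on, had 19.4, 20.8 and 22.7 CPM in Tet2 KO and 14.5, 16.2 and 13.2 CPM in Tet2 WT and missed the threshold (0.52 ± 0.16, edgeR adjusted p = 0.0598). Foxm1, a transcription factor that drives late cell cycle genes, had 16.2, 9.01 and 13.4 CPM in Tet2 KO and 8.62, 8.36 and 8.99 CPM in Tet2 WT; Tet2 KO replicate 2 lay just above the Tet2 WT range, and the gene was not called (0.57 ± 0.24, edgeR adjusted p = 0.149). The call of Ccnb2 was lost without Tet2 WT replicate 1 (0.0552), and that of Ccna2 without Tet2 WT replicate 1 (0.0541). Foxm1 was called without Tet2 KO replicate 2 (0.0329), all by edgeR adjusted p.

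Within this role, unequal shifts of a cyclin and its kinase can be read inside each library as a ratio of TPM. The Ccnb1 level was 0.615, 0.497 and 0.505 in Tet2 KO and 0.261, 0.298 and 0.299 in Tet2 WT of the Cdk1 level. For Ccnb2 over Cdk1 the ratio was 0.998, 0.539 and 0.707 in Tet2 KO and 0.427, 0.529 and 0.371 in Tet2 WT, and for Ccna2 over Cdk1 it was 0.604, 0.558 and 0.546 in Tet2 KO and 0.446, 0.509 and 0.537 in Tet2 WT. With all transcripts of a gene summed, each ratio was higher in all Tet2 KO libraries than in all Tet2 WT libraries. The gap was wide for Ccnb1 and narrow for Ccnb2 and Ccna2. The ratio of Cdc20 to Mad2l1, an activator of the anaphase-promoting complex over its checkpoint inhibitor, was 1.85, 0.976 and 1.14 in Tet2 KO and 0.489, 0.682 and 0.842 in Tet2 WT. An exact two-sided permutation test gave p = 0.1 for each of the 4 ratios, the smallest that 3 against 3 libraries allow, and 0.1 after Benjamini-Hochberg adjustment over the 4. The 4 ratios need no scaling between libraries, but they include non-coding transcripts and the pairs were chosen after the values were seen.

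Of the 6 mitotic kinases and members of the chromosomal passenger complex, 5 were called higher. Birc5, or survivin, the passenger subunit that docks on centromeric histones, had 30.3, 26.5 and 25.99 CPM in Tet2 KO and 16.3, 18.1 and 15.03 CPM in Tet2 WT. Its genotypes were well apart, with a log2 fold change of 0.74 ± 0.15 (SE; edgeR adjusted p = 0.00941). Cdca8, or borealin, another subunit of the complex, had 19.4, 20.9 and 21.6 CPM in Tet2 KO and 12.1, 11.02 and 13.1 CPM in Tet2 WT and a log2 fold change of 0.77 ± 0.16 (SE; edgeR adjusted p = 0.0107). Aurkb, the kinase of the complex, had 30.8, 26.05 and 37.7 CPM in Tet2 KO and 16.4, 20.8 and 14.3 CPM in Tet2 WT; its genotypes did not overlap, with a log2 fold change of 0.88 ± 0.20 (SE; edgeR adjusted p = 0.0142). Incenp, the scaffold that holds the complex together, was lower in every Tet2 WT library but not called, at 32.2, 29.2 and 40.01 CPM in Tet2 KO and 19.4, 28.1 and 23.3 CPM in Tet2 WT (0.52 ± 0.18, edgeR adjusted p = 0.0889). The remaining kinases had larger folds and wider spread. Plk1 (ENSMUSG00000030867.7; GRCm38 chromosome 7, 122159439 to 122169873, plus strand), which acts from centrosome maturation to cytokinesis, had 15.9, 9.45 and 9.83 CPM in Tet2 KO and 2.79, 6.09 and 3.41 CPM in Tet2 WT. All Tet2 KO libraries lay above Tet2 WT, with replicate 1 far above the others, and the log2 fold change was 1.51 ± 0.35 (SE; edgeR adjusted p = 0.0158). Aurka, the spindle pole kinase, had 17.7, 12.2 and 8.31 CPM in Tet2 KO and 5.495, 6.22 and 5.42 CPM in Tet2 WT, with a log2 fold change of 1.16 ± 0.28 (SE; edgeR adjusted p = 0.0215). By edgeR adjusted p, the call of Aurkb was lost without Tet2 KO replicate 3 (0.0666), Tet2 WT replicate 1 (0.0611) or Tet2 WT replicate 3 (0.0533). That of Plk1 was lost without Tet2 KO replicate 1 (0.0605), Tet2 WT replicate 1 (0.0637) or Tet2 WT replicate 3 (0.0611), and that of Aurka without Tet2 KO replicate 1 (0.0736), Tet2 WT replicate 1 (0.0814) or Tet2 WT replicate 3 (0.0717). Plk1, Aurka and Incenp were chosen for description after their values were seen.

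In the spindle checkpoint and anaphase group, 3 of 6 members were called higher, and fold changes, all above 0, ranged widely. Cdc20 (ENSMUSG00000006398.15; GRCm38 chromosome 4, 118432901 to 118437352, minus strand) encodes the activator that turns the anaphase-promoting complex on securin and cyclin B. It had 32.5, 16.7 and 23.8 CPM in Tet2 KO and 7.82, 10.2 and 9.21 CPM in Tet2 WT. The lowest Tet2 KO library lay well above the highest Tet2 WT library, and the log2 fold change was 1.42 ± 0.25 (SE; edgeR adjusted p = 0.00422). Bub1b, whose product BubR1 is part of the complex that inhibits Cdc20, had 45.3, 26.2 and 38.6 CPM in Tet2 KO and 19.5, 15.1 and 14.5 CPM in Tet2 WT, a log2 fold change of 1.16 ± 0.22 (SE; edgeR adjusted p = 0.00616). Ube2c, the ubiquitin-conjugating enzyme of the anaphase-promoting complex, had 20.97, 19.2 and 16.9 CPM in Tet2 KO and 8.55, 12.9 and 7.903 CPM in Tet2 WT, without overlap. Its log2 fold change was 0.96 ± 0.22 (SE; edgeR adjusted p = 0.0174), and its call was lost without Tet2 KO replicate 1 (0.0555), Tet2 WT replicate 1 (0.0768) or Tet2 WT replicate 3 (0.0624). The other checkpoint genes did not pass the test. Mad2l1, the checkpoint protein that binds Cdc20 directly, had 20.8, 22.2 and 25.3 CPM in Tet2 KO and 21.3, 22.7 and 14.2 CPM in Tet2 WT. Its genotypes overlapped and it had the smallest fold change of the members, 0.23 ± 0.20 (edgeR adjusted p = 0.508). The checkpoint kinase gene Ttk had the fewest counts of the members, at 7.35, 3.77 and 2.45 CPM in Tet2 KO and 4.87, 2.46 and 1.88 CPM in Tet2 WT, and overlapped too (0.56 ± 0.49, edgeR adjusted p = 0.519). Bub1, a checkpoint kinase at the kinetochore, had 16.5, 9.47 and 10.4 CPM in Tet2 KO and 8.45, 6.65 and 6.93 CPM in Tet2 WT; the genotypes did not overlap and the gene was not called (0.72 ± 0.26, edgeR adjusted p = 0.0909).

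Of the kinetochore genes, 6 of 7 were called higher, and the log2 fold changes of all 7 ran from 0.64 to 0.999, with a median of 0.76. Ndc80, the microtubule-binding subunit of the NDC80 complex, had 23.2, 13.8 and 20.97 CPM in Tet2 KO and 9.06, 10.2 and 9.71 CPM in Tet2 WT. Its partner Nuf2 had 14.7, 9.73 and 12.97 CPM in Tet2 KO and 6.14, 6.597 and 6.78 CPM in Tet2 WT. Cenpe, a kinesin motor that brings chromosomes to the spindle equator, had 21.03, 12.002 and 18.1 CPM in Tet2 KO and 7.57, 8.81 and 9.56 CPM in Tet2 WT. In all 3 genes Tet2 KO replicate 1 was highest and replicate 2 lowest among the Tet2 KO libraries, while the Tet2 WT libraries differed little. Their log2 fold changes were 0.999 ± 0.22 (SE; edgeR adjusted p = 0.013), 0.94 ± 0.22 (SE; edgeR adjusted p = 0.0187) and 0.98 ± 0.24 (SE; edgeR adjusted p = 0.0201). Each was lost by edgeR adjusted p on leaving out some single libraries. Ndc80 was lost without Tet2 KO replicate 3 (0.0563) or Tet2 WT replicate 1 (0.0567). Nuf2 was lost without Tet2 KO replicate 1 (0.0634), Tet2 KO replicate 3 (0.0688), Tet2 WT replicate 1 (0.0718) or Tet2 WT replicate 3 (0.0512). Cenpe was lost without Tet2 KO replicate 1 (0.0695), Tet2 KO replicate 3 (0.074) or Tet2 WT replicate 1 (0.0832). Spc25, a further NDC80 complex subunit, Cenpf, a large protein of the outer kinetochore, and Cenpa, the histone H3 variant that marks centromeres, had log2 fold changes of 0.76 ± 0.21, 0.72 ± 0.20 and 0.76 ± 0.20 (edgeR adjusted p = 0.0368, 0.0397 and 0.0281). Knl1, the scaffold to which checkpoint proteins bind, had 22.3, 13.4 and 15.7 CPM in Tet2 KO and 10.2, 12.98 and 9.97 CPM in Tet2 WT and was not called (0.64 ± 0.23, edgeR adjusted p = 0.0936).

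Genes of spindle assembly and chromosome movement had the largest median of the 7 roles, a log2 fold change of 1.002, with 8 of 9 called. Stmn1, or stathmin, which destabilises microtubules, had the most counts of the members, with 198, 126 and 152 CPM in Tet2 KO and 86.4, 83.9 and 89.6 CPM in Tet2 WT. Tet2 KO replicate 1 was highest, and the Tet2 WT libraries were nearly equal; the log2 fold change was 0.87 ± 0.16 (SE; edgeR adjusted p = 0.00645). Kif22, a motor that pushes chromosome arms away from the poles, had 28.4, 15.97 and 23.3 CPM in Tet2 KO and 10.04, 10.6 and 7.79 CPM in Tet2 WT. Tpx2, which nucleates microtubules and activates Aurora A, had 28.3, 20.4 and 26.4 CPM in Tet2 KO and 10.6, 15.6 and 11.3 CPM in Tet2 WT. The genotypes did not overlap for either gene, with log2 fold changes of 1.25 ± 0.24 (SE; edgeR adjusted p = 0.00674) and 1.002 ± 0.21 (SE; edgeR adjusted p = 0.00957). Kif2c, a microtubule-depolymerising kinesin that corrects faulty attachments, had the largest fold change of all members and was chosen for it, at 13.3, 10.1 and 9.62 CPM in Tet2 KO and 4.598, 4.57 and 2.16 CPM in Tet2 WT. Tet2 WT replicate 3 was the lowest library by far, and the log2 fold change was 1.55 ± 0.33 (SE; edgeR adjusted p = 0.0108). Kif4, Hmmr, Kif11 and Nusap1, which act in chromosome condensation, spindle pole focusing, pole separation and microtubule bundling, had log2 fold changes of 1.16 ± 0.25, 1.09 ± 0.25, 0.96 ± 0.22 and 0.68 ± 0.17 (edgeR adjusted p = 0.0113, 0.0167, 0.0148 and 0.0215). Kif15, a motor that can stand in for Kif11, overlapped at 11.7, 8.31 and 11.3 CPM in Tet2 KO and 9.64, 7.24 and 9.28 CPM in Tet2 WT and was not called (0.26 ± 0.23, edgeR adjusted p = 0.521).

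In the central spindle and cytokinesis group, 6 of 7 members were called higher. Racgap1 (ENSMUSG00000023015.14; GRCm38 chromosome 15, 99620496 to 99651656, minus strand) encodes a subunit of centralspindlin, the complex that marks the division plane. It had 55.9, 45.8 and 57.6 CPM in Tet2 KO and 30.1, 29.3 and 28.2 CPM in Tet2 WT. The Tet2 WT libraries were close to each other, and the log2 fold change was 0.86 ± 0.14 (SE; edgeR adjusted p = 0.00249). Kif23, the motor subunit of centralspindlin, had 63.8, 52.97 and 63.1 CPM in Tet2 KO and 30.5, 41.3 and 35.1 CPM in Tet2 WT, a log2 fold change of 0.75 ± 0.15 (SE; edgeR adjusted p = 0.00893). Kif20a, a motor that brings Plk1 to the central spindle, had 29.4, 15.3 and 27.9 CPM in Tet2 KO and 8.93, 10.6 and 8.23 CPM in Tet2 WT. Its Tet2 KO replicate 2 lay between the other Tet2 KO libraries and the Tet2 WT range, and the log2 fold change was 1.38 ± 0.26 (SE; edgeR adjusted p = 0.00567). Prc1, the bundler of central spindle microtubules, Anln, a scaffold of the contractile ring, and Ect2, which activates RhoA there, had log2 fold changes of 0.84 ± 0.19, 0.78 ± 0.16 and 0.66 ± 0.18 (edgeR adjusted p = 0.0136, 0.0108 and 0.0367). Kif20b, a late-acting motor, overlapped at 17.7, 10.1 and 17.4 CPM in Tet2 KO and 8.36, 11.9 and 10.7 CPM in Tet2 WT and was not called (0.54 ± 0.26, edgeR adjusted p = 0.196).

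On the TPM scale, Stmn1 was far above the rest, at 289, 175 and 222 TPM in the Tet2 KO libraries, against 139, 131 and 149 TPM in the Tet2 WT libraries. Cenpa and Kif23 followed, with 55.5, 40.6 and 44.8 TPM in the Tet2 KO libraries, against 21.1, 33.4 and 34.2 TPM in the Tet2 WT libraries for Cenpa and 49.2, 41.3 and 47.4 TPM in the Tet2 KO libraries, against 25.5, 29.6 and 30.2 TPM in the Tet2 WT libraries for Kif23. The next members, Birc5 and Cdk1, had 45.7, 33.02 and 36.6 TPM in the Tet2 KO libraries, against 25.3, 26.99 and 24.8 TPM in the Tet2 WT libraries for Birc5 and 34.2, 34.9 and 35.5 TPM in the Tet2 KO libraries, against 26.2, 29.9 and 24.5 TPM in the Tet2 WT libraries for Cdk1. Neighbours in this order, from Cenpa to Cdk1, did not differ beyond their spread in either genotype. At the other end, Ttk averaged 2.74 ± 1.43 TPM in the Tet2 KO libraries and 2.4003 ± 1.01 TPM in the Tet2 WT libraries, and Cenpe 2.93 ± 0.998 TPM in the Tet2 KO libraries and 1.72 ± 0.423 TPM in Tet2 WT (SD, n = 3 each). The summed member level was 1047, 733 and 899 TPM in the Tet2 KO libraries, against 527, 582 and 550.0 TPM in the Tet2 WT libraries. In TPM, 32 of 42 members did not overlap, against 8.14% of all tested genes, so that 10 overlapped on this scale and 4 in CPM. limma called 19 members higher on log2(TPM + 1), against 2.34% of all genes, and 20 on log2(TPM + 0.1), against 2.44%. TPM divides by the RNA of all transcripts in a library without a trimmed scaling factor.

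**Figure D2:**
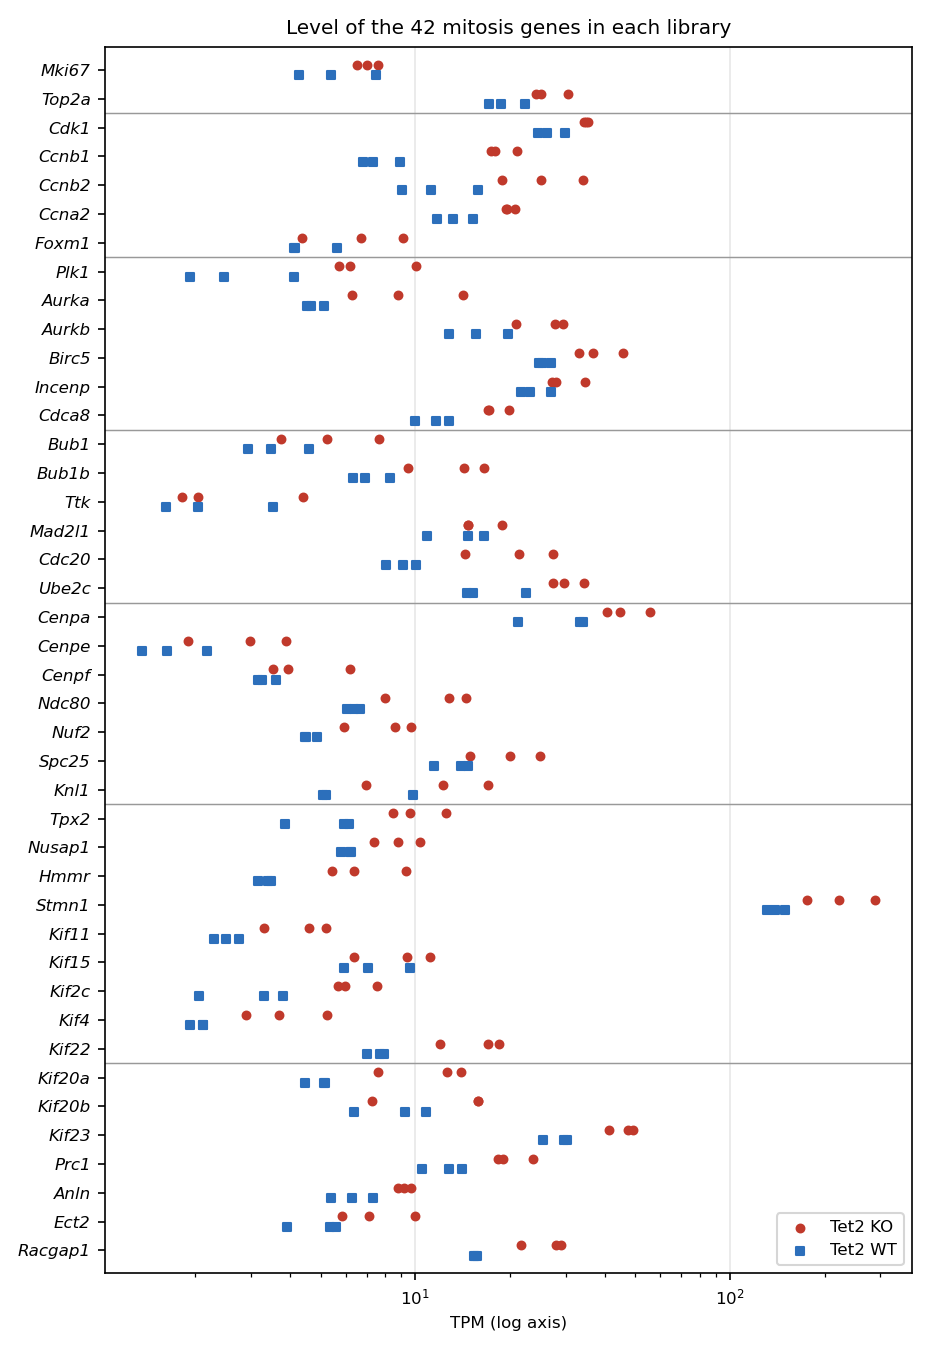
Level of each of the 42 mitosis genes in TPM (log axis) in every library, Tet2 KO as red circles above Tet2 WT as blue squares, with horizontal lines between the 7 roles. Stmn1 lies far to the right, at 175 to 289 TPM in the Tet2 KO libraries and 131 to 149 TPM in the Tet2 WT libraries, and the 2 colours overlap for 10 genes, Mki67 and Mad2l1 among them.

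Relative to Adgre1 and Csf1r, the mitosis genes showed no common shift. In this fit the libraries were scaled to the geometric mean of the counts of both genes, which set the median log2 fold change of all tested genes at -0.78 and that of the members at 0.03. By edgeR's adjusted p, 0 of 42 members were called higher, against 0.104% of all genes, and 0 lower, against 50.0% of all genes. At an unadjusted p under 0.05 there were 3 members, all higher, against 0.183% of all genes. These were Ccnb1, Plk1 and Cdc20, with log2 fold changes of 0.61 ± 0.26, 0.77 ± 0.37 and 0.63 ± 0.29 (SE; edgeR adjusted p = 0.0617, 0.081 and 0.0698). At the other end stood Mad2l1 and Kif15, at -0.57 ± 0.27 and -0.57 ± 0.32. In all, 23 members were above 0 and 19 below. By role, the medians ran from -0.16 for the chromosome markers to 0.23 for spindle assembly, with 0.01 for kinetochore and cytokinesis genes alike. Calls of single members appeared in some alternative fits. With Adgre1 alone as the scale, Ccnb1 was called higher (0.62, edgeR adjusted p = 0.0456), as were 0.11% of all genes. With the list of macrophage markers as the scale, Ccnb1 and Cdc20 were (0.68 and 0.70, edgeR adjusted p = 0.0248 and 0.0410), as were 0.122% of all genes. Leaving out a single library added Cdc20 and Kif20a without Tet2 KO replicate 2, Ccnb1 without Tet2 WT replicate 1, Plk1 without Tet2 WT replicate 2, and Mad2l1 as lower without Tet2 WT replicate 3. In the first 3 of these fits 0.19%, 0.142% and 0.226% of all tested genes were called higher, and in the last 39.7% were called lower. The reference genes are also members of the macrophage list, so those scalings are not independent of each other.

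Library by library, the summed member level was 1351, 1007 and 1214 CPM in Tet2 KO and 629.8, 737 and 636 CPM in Tet2 WT. As a percentage of the summed Adgre1 and Csf1r level it was 28.9, 24.5 and 24.4 percent in Tet2 KO and 29.3, 24.2 and 22.2 percent in Tet2 WT. In CPM the genotypes were fully apart, while the percentages interleaved, with replicate 1 highest in both genotypes. Tet2 KO replicate 1 was the highest Tet2 KO library for 34 members and Tet2 KO replicate 3 for 8; Tet2 KO replicate 2 was the highest for 0 and the lowest for 31. Among Tet2 WT libraries, replicate 2 was highest for 27 members, replicate 1 for 9 and replicate 3 for 6. Adgre1 and Csf1r were both highest in Tet2 KO replicate 3, where the member sum was highest in replicate 1, and both were lowest in Tet2 KO replicate 2, as the member sum was. Among Tet2 WT libraries the member sum, Adgre1 and Csf1r had the same order, with replicate 2 highest and replicate 1 lowest. Tet2 KO replicate 1 also had the fewest estimated counts, 37349505, and the highest B cell sum. Whether these bear on its member levels was not tested.

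**Figure D3:**
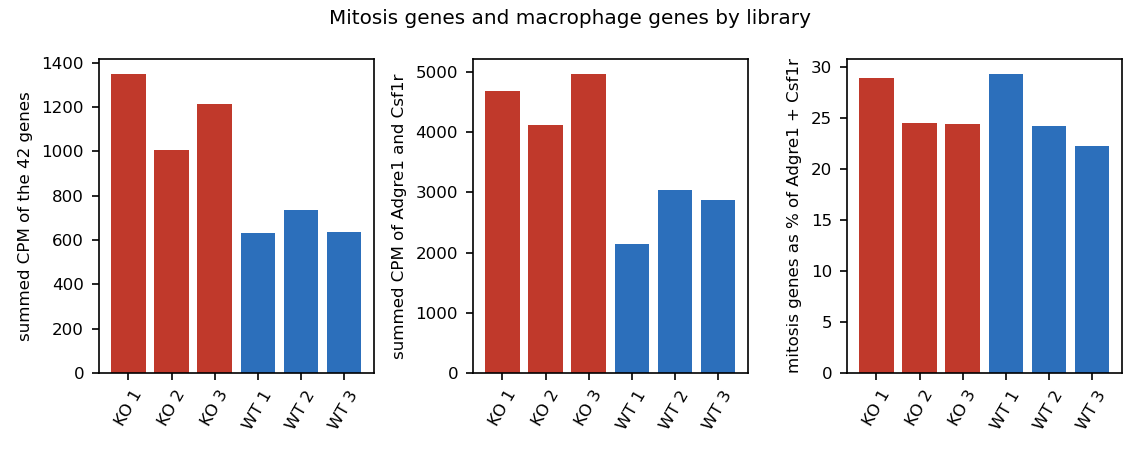
Summed CPM of the 42 mitosis genes, summed CPM of Adgre1 and Csf1r, and the first as a percentage of the second, each bar a library, with Tet2 KO in red left of Tet2 WT in blue. The mitosis sum is 1007 to 1351 CPM in Tet2 KO and 630 to 737 CPM in Tet2 WT; as a percentage of the macrophage genes it is 24.4 to 28.9 in Tet2 KO and 22.2 to 29.3 in Tet2 WT, and the genotypes interleave.

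The count of calls depended on single libraries while the direction did not. With each library left out in turn, 15 of the 32 calls stood in all 6 fits: Top2a, Ccnb1, Birc5, Cdca8, Bub1b, Cdc20, Tpx2, Stmn1, Kif2c, Kif4, Kif22, Kif20a, Kif23, Anln and Racgap1. Among these 15, Top2a, Kif4 and Anln were not called by limma on either TPM scale. Of the other 17, 12 lost the call in at least 3 fits. Without Tet2 WT replicate 1, all 17 were lost and 15 members were called higher, the fewest of the 6 fits, against 2.07% of all genes. The edgeR adjusted p-values of those lost were 0.0529 to 0.137. Without Tet2 WT replicate 3 the count was 20 (3.59% of all genes), without Tet2 KO replicate 1 it was 22 (3.48%) and without Tet2 KO replicate 3 it was 22 (2.51%). Without Tet2 WT replicate 2 it was 32 (5.95% of all genes), and without Tet2 KO replicate 2 it was 34 (8.31%). Without Tet2 KO replicate 1 the lost calls were those of Plk1, Aurka, Ube2c, Cenpa, Cenpe, Cenpf, Nuf2, Spc25, Kif11 and Ect2 (edgeR adjusted p = 0.0507 to 0.117). Without Tet2 KO replicate 3 they were those of Aurkb, Cenpa, Cenpe, Cenpf, Ndc80, Nuf2, Spc25, Nusap1, Kif11 and Ect2 (edgeR adjusted p = 0.0563 to 0.107). Without Tet2 WT replicate 3 they were those of Plk1, Aurka, Aurkb, Ube2c, Cenpa, Cenpf, Nuf2, Spc25, Nusap1, Hmmr, Kif11 and Ect2 (edgeR adjusted p = 0.0512 to 0.113). Without Tet2 WT replicate 2 they were Spc25 and Ect2 (edgeR adjusted p = 0.0819 to 0.0826), while Mki67 and Incenp gained a call (edgeR adjusted p = 0.0160 and 0.0493). Without Tet2 KO replicate 2 the one lost was Cenpa (edgeR adjusted p = 0.0505), while Foxm1, Knl1 and Kif20b gained a call (edgeR adjusted p = 0.0329, 0.0474 and 0.0406). In each of these fits 0 members were called lower, against 6.09% to 10.3% of all genes. Leaving out replicate 1 of both genotypes together, an alternative added after seeing the data, left 5 calls, which were Ccnb1, Bub1b, Cdc20, Stmn1 and Racgap1, against 1.06% of all genes called higher in that fit.

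Other cell cycle genes were read from 10 lists that hold 184 further genes, all of them tested. Of these, 21 were called higher (11.4%) and 0 lower, against 32 of 42 members. The shares over all tested genes were 6.11% higher and 10.1% lower. The median log2 fold change of the 184 genes was 0.34. Relative to Adgre1 and Csf1r, 0 of the 184 were called higher, against 0.104% of all tested genes, and 58 lower (31.5%), against 50.0% of all tested genes. The spindle and kinesin list came closest to the members, with 4 of 23 called and a median of 0.53: Ckap2l (1.002 ± 0.17, edgeR adjusted p = 0.00316), Tacc3 (0.77 ± 0.14, edgeR adjusted p = 0.00493), Troap (1.37 ± 0.39, edgeR adjusted p = 0.0403) and Spag5. Condensin and cohesin genes had 3 of 18 called, the condensin subunits Ncapg, Ncaph and Smc2, with log2 fold changes of 1.09 ± 0.28, 0.97 ± 0.27 and 0.45 ± 0.13 (edgeR adjusted p = 0.0269, 0.0397 and 0.0453). Centromere genes had 2 of 19, Cenpi and Cenpl; the kinetochore and checkpoint list had 1 of 19, Pmf1; and mitotic entry control had 1 of 17, the Cdk1-inhibiting kinase Pkmyt1 (0.64 ± 0.17, edgeR adjusted p = 0.0309). The anaphase-promoting complex had 1 of 17 called, Anapc15, with a median of 0.11. Lists with 1 of 17 or 1 of 19 called stood near the 6.11% of all tested genes called higher. Among E2F, RB and DREAM genes, E2f1 (0.80 ± 0.14, edgeR adjusted p = 0.00481), a driver of S phase genes, and Rbl1 (0.72 ± 0.16, edgeR adjusted p = 0.0151), which encodes the pocket protein p107, were called out of 19. DNA replication genes had 6 of 36 called and a median of 0.41, among them the flap endonuclease Fen1 (0.78 ± 0.16, edgeR adjusted p = 0.0101), the ribonucleotide reductase subunit Rrm2 (1.11 ± 0.24, edgeR adjusted p = 0.013) and the helicase subunit Mcm6 (0.64 ± 0.15, edgeR adjusted p = 0.0151). Among the 8 G1 cyclins and kinases 0 were called and the median was -0.01. Cdk2 had a log2 fold change of 0.40 ± 0.17 and Ccne1 of -0.49 ± 0.32 (edgeR adjusted p = 0.149 and 0.369). Cdk4 had 123, 101 and 116 CPM in Tet2 KO and 128, 120.3 and 118 CPM in Tet2 WT. Of the 8 CDK inhibitors, Cdkn1a, which encodes p21, was called higher, with 401, 408 and 373 CPM in Tet2 KO and 272, 309 and 232 CPM in Tet2 WT (0.54 ± 0.14, edgeR adjusted p = 0.0256). Cdkn1c, at -0.52 ± 0.17, and Cdkn2d, at 0.43 ± 0.15, were not called (edgeR adjusted p = 0.0662 and 0.0819). The spread of the other lists' medians, from -0.01 to 0.53, lay below the member median of 0.81; no test of that difference was made. Leaving out each library in turn, 4 of the 21 calls stood in all 6 fits: Ckap2l, Tacc3, E2f1 and Fen1. The other 17 were lost at least once, 15 of them without Tet2 WT replicate 3, 13 without Tet2 KO replicate 3, 13 without Tet2 WT replicate 1, 11 without Tet2 KO replicate 1, 9 without Tet2 WT replicate 2 and 5 without Tet2 KO replicate 2. Rrm2 and Mcm6 stood in 5 fits; leaving out Tet2 KO replicate 3 put Rrm2 at an edgeR adjusted p of 0.0570, and leaving out Tet2 WT replicate 3 put Mcm6 at an edgeR adjusted p of 0.0551. The DNA replication gene Cdt1 stood in 4 fits, with an edgeR adjusted p of up to 0.0603. Pmf1 and Rbl1 stood in 3 fits, with edgeR adjusted p-values of up to 0.0766 and 0.0608. Cenpi, Ncapg, Ncaph, Cdkn1a and the DNA replication gene Pold1 stood in 2, with values of up to 0.1004, 0.0950, 0.128, 0.0977 and 0.138. Troap, Spag5, Pkmyt1, Cenpl, Anapc15 and the DNA replication gene Mcm5 stood in 1, with values of up to 0.127, 0.130, 0.0997, 0.156, 0.142 and 0.102. Smc2 was lost in each of the 6 fits, with edgeR adjusted p-values of 0.0596 to 0.118. Lists and members were both set out with earlier results known.

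**Figure D4:**
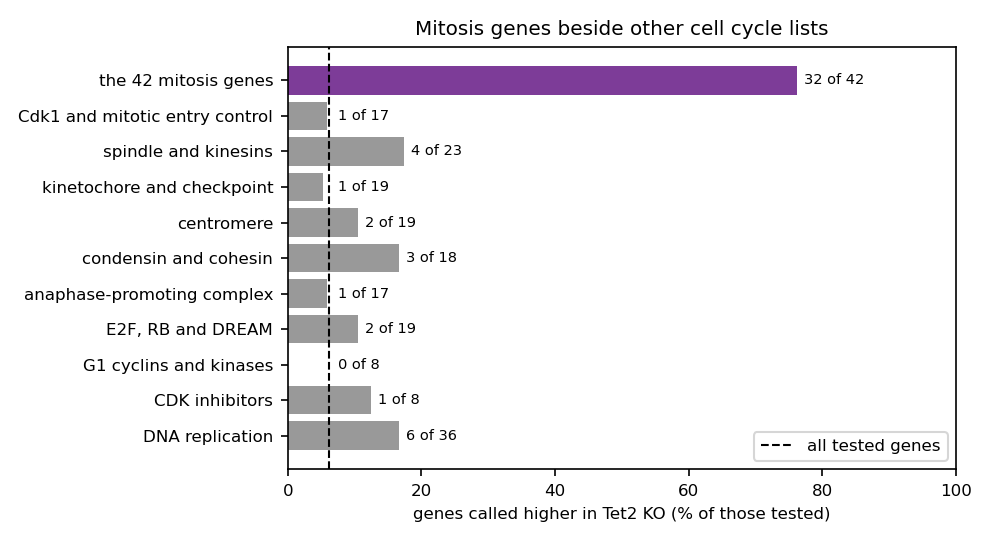
Percentage of genes called higher in Tet2 KO (edgeR adjusted p under 0.05, TMM scaling) among the 42 mitosis genes and in each of the 10 other cell cycle lists, with the number called beside each bar and a dashed line at 6.11%, the value for all tested genes. The mitosis genes stand at 32 of 42; the other lists run from 0 of 8 to 4 of 23. Relative to Adgre1 and Csf1r, 0 genes of any bar were called higher.

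Promoters of the members were compared for the elements through which late cell cycle genes are commonly controlled. Of the 42 members, 35 had a promoter in the RefSeq table of GRCm38.p6, in all 37 windows of 250 bases before to 50 bases after the start. The NF-Y box CCAAT, searched on both strands, was found in 27 of 37 member promoters (73.0%) and in 37.4% of all 32851 promoters. The CHR element TTTGAA, also searched on both strands, was found in 30 of 37 (81.1%) and in 17.9% of all promoters. Both were present in 24 of 37 (64.9%) and in 6.95% of all promoters. The CHR variant TTCGAA was present in 3 of 37 (8.11%) and in 1.56% of all promoters. A pair of NF-Y boxes on one strand with starts 30 to 34 bases apart, a spacing chosen after seeing the sequences, was present in 8 of 37 (21.6%) and in 1.16% of all promoters. Ect2 and Prc1 enter with overlapping windows, so their matches count in each. Counted by gene, the NF-Y box was in 25 of 35 members (71.4%) and in 41.1% of 27025 genes. The CHR element was in 28 of 35 (80%) and in 20.2%, and both were in 22 of 35 (62.9%) and in 7.97%. All of these are matches of letters, not sites. Among the 35 genes, 21 of 25 with an NF-Y box and 6 of 10 without one were called higher, as were 22 of 28 with a CHR element and 5 of 7 without one. Of all tested genes, 6.11% were called higher. The groups without a motif are small, and whether calls differ with a motif was not tested. NF-Y boxes lay mostly before the start site, while CHR elements lay mostly close to it on either side.

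The windows of 120 bases before to 20 bases after the RefSeq start (GRCm38.p6) show this for 3 members whose calls stood without any single library (Ccnb1, Racgap1, Cdc20), for a further such gene with both elements (Kif22), for 2 called members with several NF-Y boxes (Ccnb2, Ube2c), and for the member with the smallest fold change (Mad2l1). Sequences run 5′ to 3′ on the strand of the gene, and capitals mark CCAAT or its reverse complement ATTGG, and TTTGAA or its reverse complement TTCAAA. They lie at chr13:100786467-100786606 (minus strand), chr15:99651637-99651776 (minus strand), chr4:118437324-118437463 (minus strand), chr7:127042401-127042540 (minus strand), chr9:70421535-70421674 (minus strand), chr2:164769809-164769948 (plus strand) and chr6:66535101-66535240 (plus strand).
Ccnb1: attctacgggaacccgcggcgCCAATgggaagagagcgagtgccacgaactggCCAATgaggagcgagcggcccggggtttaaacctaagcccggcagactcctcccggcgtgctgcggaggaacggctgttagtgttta
Racgap1: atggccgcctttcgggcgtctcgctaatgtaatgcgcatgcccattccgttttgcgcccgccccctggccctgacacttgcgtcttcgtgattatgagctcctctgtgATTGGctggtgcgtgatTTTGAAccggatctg
Cdc20: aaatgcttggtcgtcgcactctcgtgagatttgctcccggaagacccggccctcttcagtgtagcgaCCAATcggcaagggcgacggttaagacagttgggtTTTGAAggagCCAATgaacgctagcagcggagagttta
Kif22: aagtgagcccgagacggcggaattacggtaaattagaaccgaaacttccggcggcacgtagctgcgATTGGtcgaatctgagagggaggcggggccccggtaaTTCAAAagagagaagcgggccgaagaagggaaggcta
Ccnb2: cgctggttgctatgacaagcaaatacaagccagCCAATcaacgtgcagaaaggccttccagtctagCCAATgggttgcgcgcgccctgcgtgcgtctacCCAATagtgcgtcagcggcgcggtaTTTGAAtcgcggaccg
Ube2c: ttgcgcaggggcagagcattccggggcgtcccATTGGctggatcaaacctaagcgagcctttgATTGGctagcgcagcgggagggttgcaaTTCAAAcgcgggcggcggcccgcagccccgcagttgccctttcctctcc
Mad2l1: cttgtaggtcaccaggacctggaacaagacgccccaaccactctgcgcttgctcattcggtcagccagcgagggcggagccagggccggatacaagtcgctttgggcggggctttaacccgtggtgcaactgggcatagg
The Ccnb1 window holds 2 NF-Y boxes and the Ccnb2 window 3, while the Ccnb1 window has 0 CHR elements in this form. In Cdc20 and Ube2c, 2 NF-Y boxes stand beside 1 CHR element, and Racgap1 and Kif22 have 1 of each. The Mad2l1 window has 0 of both, which says only that these letters are not in this window.

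**Figure D5:**
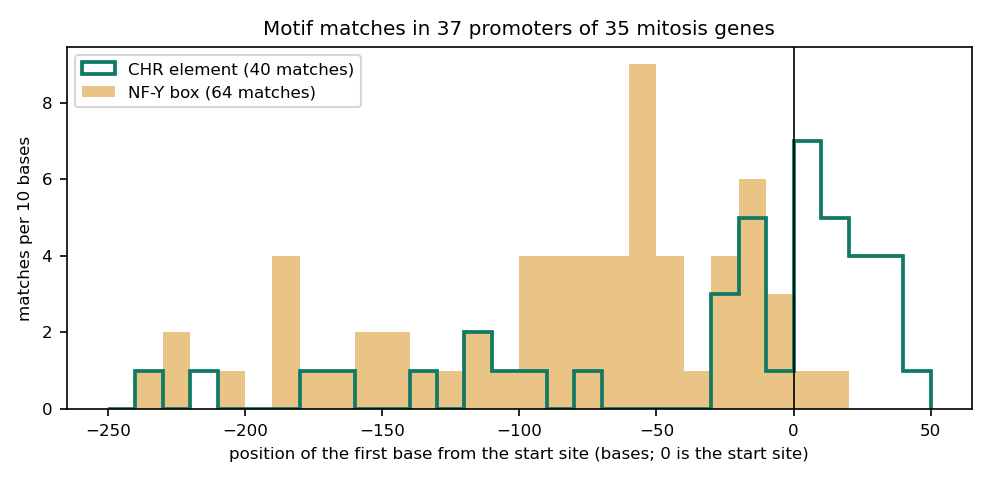
Number of matches of the NF-Y box (filled, 64 matches) and the CHR element (line, 40 matches) per 10 bases in the 37 member promoters, by distance in bases from the RefSeq start site at 0. NF-Y boxes are most frequent before the start site, and CHR elements on either side of it, most of all just after it. Ect2 and Prc1 enter with overlapping windows, so their matches are counted in each.

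For most members the counts came mainly from protein-coding transcripts, with exceptions that touch the values above. Cenpa counts came largely from Cenpa-202, annotated as subject to nonsense-mediated decay, and from Cenpa-208, which retains an intron. Its main coding transcript Cenpa-205 had 322, 487 and 477 estimated counts in Tet2 KO and 301, 366 and 302 estimated counts in Tet2 WT. With protein-coding transcripts alone, Cenpa had a log2 fold change of 0.63 ± 0.21 and was not called (edgeR adjusted p = 0.078), and Ect2 was not called either (0.53 ± 0.18, edgeR adjusted p = 0.0711). The other 30 calls stood. The coding share of the counts was also lower for Kif15 (49.3 to 66.0%), Ttk (49.8 to 76.1%) and Mad2l1 (71.7 to 78.8%). None of them was called in either fit. Among called members, the share of Kif23 was 76.3 to 81.0%. That of Ndc80 was 82.4 to 93.9% in Tet2 KO and 73.3 to 79.7% in Tet2 WT, without overlap. With protein-coding transcripts alone, Kif15 (0.10 ± 0.29) and not Mad2l1 (0.16 ± 0.21) had the smallest fold change of the members. kallisto divides reads shared by transcripts of a gene by a model, so these shares are estimates.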

How the data were processed

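Gene expression was measured by paired-end RNA-seq in 3 Tet2 KO and 3 Tet2 WT libraries of sorted cardiac macrophages. Per the submitters' processing notes, the authors trimmed reads with Trim Galore 0.6.4 and ran kallisto 0.44.0 against the mouse transcriptome (GRCm38). Per the file headers, the deposited files give for each transcript an estimated count, not normalized, and a TPM value, scaled to 1e6 per library, with its length. The annotation release and the strand setting are not given in the sources used here, and near-identical copies share reads by kallisto's model.

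Of 118783 transcripts, 116622 (98.2%) matched GENCODE M21 without version; the others held at most 0.671% of a library's counts and were left out. Estimated counts and TPM were summed per gene, and the counts rounded. edgeR 4.0.16 (R 4.3.3) kept 16386 genes by its expression filter, scaled by TMM, and tested genotype alone with the robust quasi-likelihood test and Benjamini-Hochberg adjustment over all genes, called under 0.05. Standard errors were the fold change divided by the root of its F value. A second fit scaled libraries to the geometric mean of Adgre1 and Csf1r counts. CPM values and their sums used TMM-scaled totals. The edgeR fit with TMM scaling was checked on simulated counts, and the other fits and tests were not. Alternatives used limma 3.58.1 and DESeq2 1.42.0, other scalings and filters, single libraries left out, a replicate block, length-scaled counts and coding transcripts alone.

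Members, lists and tests were chosen with earlier results of these data known. Full statistics were given for up to 3 members of each of the 7 roles by smallest p and up to 3 genes of each other list; Adgre1, Csf1r and Tet2 were named whatever their values. Members described beyond these were chosen after their values were seen. Promoters came from RefSeq (GRCm38.p6).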

Additional observations from a re-analysis of the deposited data

How the results depend on the processing

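The scale set the sign of many members' fold changes. Scaled to Adgre1 and Csf1r, to Adgre1 alone or to Csf1r alone, 0, 1 and 0 members were called higher, against 0.104%, 0.11% and 0.116% of all genes. In both directions together, 8211, 8211 and 7899 genes were called, nearly all lower. Of the other cell cycle genes, 58, 57 and 54 were called (all lower, against 21 higher with TMM). The median of the members was 0.033, 0.041 and 0.024. Log2 fold changes turned negative, in that order of scalings, for Mki67 -0.29, -0.28 and -0.31, for Top2a -0.029, -0.018 and -0.042, for Cdk1 -0.27, -0.26 and -0.29, for Ccna2 -0.092, -0.077 and -0.11, for Foxm1 -0.24, -0.24 and -0.25, for Birc5 -0.043, -0.029 and -0.060, for Incenp -0.26, -0.25 and -0.27, for Cdca8 -0.023, -0.013 and -0.035, for Bub1 -0.10, -0.089 and -0.11, for Ttk -0.31, -0.28 and -0.34. They did so too for Mad2l1 -0.57, -0.55 and -0.60, for Cenpf -0.051, -0.043 and -0.062, for Spc25 -0.064, -0.050 and -0.081, for Knl1 -0.15, -0.14 and -0.16, for Nusap1 -0.12, -0.11 and -0.14, for Kif15 -0.57, -0.56 and -0.58, for Kif20b -0.25, -0.24 and -0.25, for Kif23 -0.026, -0.017 and -0.037, for Ect2 -0.13, -0.13 and -0.14; Anln turned at -0.0050 with Csf1r alone. Scaling to both genes lowered the median of all tested genes to -0.78, against 0.00 with TMM, a shift common to all genes that by construction also lowers the members; their sign changes follow it. limma called 19 members and 6 other cell cycle genes on log2(TPM + 1), and 20 members and 6 others on log2(TPM + 0.1). DESeq2 called 35 members (8.84% of all genes were called higher) and 41 other cell cycle genes; RLE or upper-quartile scaling, no filter on low counts, a stricter filter and limma voom each gave 32 members (5.98%, 6.52%, 4.21%, 7.45% and 6.56% of all genes), length-scaled TPM counts 28 (5.52%) and protein-coding transcripts alone 30 (6.04%). With a library left out, 15 to 34 members, 6 to 35 other cell cycle genes and 1382 to 3141 genes in all were called, and relative to Adgre1 and Csf1r 0 to 2 members higher and 0 to 1 lower. Relative calls higher were 1 with Adgre1 alone, 2 with the macrophage list, and 0 with Csf1r alone, no filter and the block. Without replicate 1 of both genotypes, chosen after seeing the data, 5 members, 5 other cell cycle genes and 1188 genes were called, with fewer libraries in the fit. The replicate number as a block gave 30 members called higher (Cenpf and Ect2 lost), against 4.82% of all genes. In both directions together it gave 2347 genes, against 2653 without it. Same-numbered libraries had correlations of 0.06, 0.13 and 0.04 in their deviations; each library correlated best with its own number, a hint from the data only, since no label pairs them. With 3 libraries a group and 102 to 7934 counts a member, differences smaller than the spread between libraries may have been missed. The smallest detectable difference was not estimated.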

Other observations

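A single transcript of a mitosis gene differed far more than its gene. Kif23-208, a transcript of the centralspindlin motor gene Kif23 that retains an intron, received 73.4, 80.4 and 83.3 estimated counts in Tet2 KO and at most 3.14 in Tet2 WT. The Kif23 gene as a whole had a log2 fold change of 0.75 ± 0.15. It was the one listed transcript of the 42 members with over 20 estimated counts in each Tet2 KO library and more than 4 times the highest Tet2 WT library; it was chosen after its values were seen and was not tested. kallisto assigns such counts by a model, and whether they come from that intron cannot be read from these files.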
